A study of Mus musculus with 24 samples.

Results

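Gene expression in the wild type mouse cochlea was compared between the onset of hearing, postnatal day 13 (P13), and adulthood, P60. Of the 24 arrays in the series, 6 were chosen by their labels for this comparison, namely 3 of wild type cochleae at P13 and 3 at P60. The animals were a 129S6 x CBA/CaJ hybrid with repeated backcrossing to CBA/CaJ, and the wild type groups carried no engineered allele and no treatment. Arrays of knockout mice at the same ages (3 at each), which are null for the nicotinic receptor subunit α9, were set beside them, and wild type arrays at P3 and P7 gave earlier levels. Each array held total RNA of 1 pool of cochleae, so the pool was the replicate. The sizes of the pools are given differently in the methods and in the design description. The dissection was meant to leave the cochlea alone, without its nerve, the vestibular canals or adhering cerebellum.

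The cochlea turns sound into nerve signals through hair cells, which sit on supporting cells, are bathed in potassium-rich fluid made by the stria vascularis and are innervated by spiral ganglion neurons. The organ lies in a bony capsule with its own marrow spaces, so that whole-cochlea RNA also carries bone, cartilage, blood-forming and immune cells. Around the onset of hearing the sensory cells no longer divide, while the capsule is still being built and remodeled.

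All values below are log2 signals after quantile normalization over the 24 arrays, with 1 probe set for each gene, and a difference is the mean at P60 minus the mean at P13, with its standard error (SE) from limma and n = 3 arrays at each age. The lowest 10% of genes had a mean under 4.48 over the 6 arrays and the median gene was at 7.90. The arrays carry no detection calls here, so a value near the bottom of this range may be background, and the size of a difference from or to such a value is uncertain. Markers of the cochlea gave high signal at both ages. Otos, a protein of the spiral limbus and ligament, was at 13.61, 13.53 and 13.87 at P13 and at 13.15, 14.04 and 13.89 at P60, and Coch, a matrix protein of cochlear fibrocytes, was at 11.86, 12.91 and 13.57 and then at 13.96, 14.17 and 13.74. In contrast, Slc26a5, the motor protein of outer hair cells, stayed between 4.33 and 5.07 on all 6 arrays, so its probe set does not mark these cells here.

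The 6 arrays were not of equal quality. The 3′ control probe set of Gapdh, a housekeeping enzyme, was above the 5′ one by 6.31, 6.38 and 2.57 on the P13 arrays and by 6.66, 0.26 and 0.89 on the P60 arrays, so P13 replicates 1 and 2 and P60 replicate 1 had little 5′ signal. The means of 5.09 ± 2.18 (SD) and 2.60 ± 3.53 (SD) gave a two-sided p = 0.4 in an exact permutation test, whose smallest possible p was 0.1. The 6 knockout arrays lay between -0.17 and 0.38. The poly-A control transcripts averaged 4.22 and 4.81 on P13 replicates 2 and 3 and at least 8.94 on the other 4 arrays. The mean correlation between replicates over all probe sets was 0.960 at P13 and 0.935 at P60.

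Of 18193 genes tested, 390 were higher at P60 (2.14% of all genes) and 681 were lower (3.74%) at an adjusted p under 0.05 in limma. The median difference over all genes was -0.08, with quartiles of -0.41 and 0.30. A difference of at least 1.5 was seen in 145 of the higher and in 394 of the lower genes. In all 390 and all 681 the 3 arrays of one age lay entirely above those of the other, which was the case for 11.7% of all genes in the higher and 17.3% in the lower direction. These counts depended on single arrays, and so did the counts of list members below. Where a range of a list's count over fits with 1 array left out is given, its lowest value was reached without P13 replicate 1 or 2 and its highest without P60 replicate 1 unless stated otherwise. Without P13 replicate 1 there were 17 higher and 61 lower genes, without P13 replicate 2 there were 10 and 45, without P13 replicate 3 there were 65 and 223, without P60 replicate 2 there were 83 and 156 and without P60 replicate 3 there were 193 and 277, whereas 1396 and 2043 were counted without P60 replicate 1. Without the 3 arrays weak at the Gapdh 5′ end, a fit with the spread of all 8 groups called 340 higher genes, 144 of them among the 390, and 832 lower genes, 507 of them among the 681. A fit of only the remaining 3 arrays called 0 genes, with 1675 above and 2017 below 0 at a p under 0.05 before adjustment. Scaling moved the split of higher to lower calls, from 390 to 681 after quantile normalization to 244 to 2410 on the deposited values, on which the median of all genes was -0.40, and to 250 to 937 after centering each array, with a median of -0.24.

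**Figure D1:**
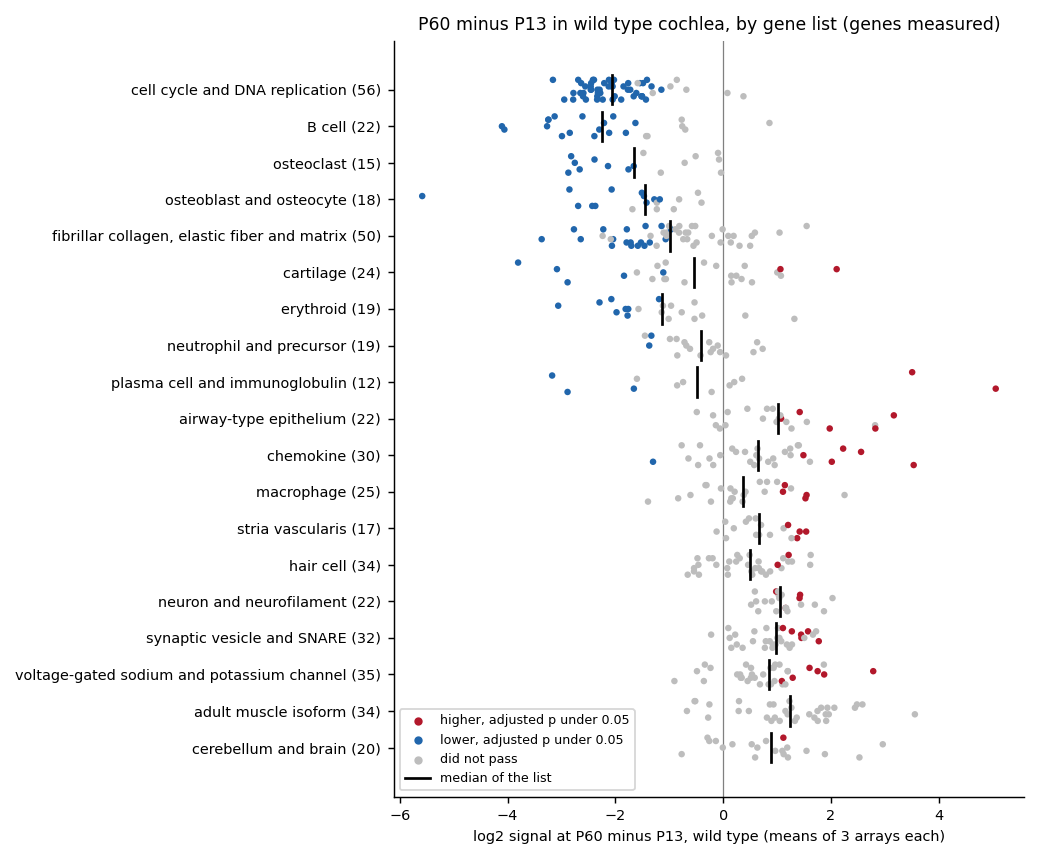
Difference between P60 and P13 in wild type cochlea (log2 signal, horizontal axis) for each measured gene of 19 lists; red and blue points passed at an adjusted p under 0.05, gray points did not, and black bars are list medians. The cell cycle list has its median at -2.07 and the synaptic vesicle list at 0.99.

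The deepest falls were in genes of blood-forming cells, bone and cartilage. Stfa3 and Stfa2l1, stefin A inhibitors of cysteine proteases that belong to a family of near-identical copies, fell the most. Stfa3 was at 12.88, 12.25 and 11.82 on the P13 arrays and at 5.85, 3.92 and 4.69 on the P60 arrays. These arrays lie far apart, with a difference of -7.50 (SE 0.49, limma adjusted p = 0.00247). Stfa2l1 differed by -6.05 (SE 0.37, limma adjusted p = 0.00247), and signal of the family's copies may be shared between their probes. Panx3, a pannexin channel of osteoblasts and maturing chondrocytes, went from 11.53, 11.58 and 11.17 to 7.52, 5.76 and 4.25. All 3 P60 arrays were lower, but they spread widely, with P60 replicate 1 the highest, and the difference was -5.58 (SE 0.70, limma adjusted p = 0.00912). Its 3 probe sets all pointed down, from -5.58 to -0.09. Esco2, which acetylates cohesin in S phase, fell by 3.32 and Fbn2, the fibrillin of developing elastic tissue, fell by 3.37.

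Nearly the whole cell division program was lower in the adult. Of 56 measured genes of the cell cycle and of DNA replication, 49 were lower and 0 higher, and the list's median difference was -2.07 against -0.08 for all genes. Kif11, the kinesin that pushes spindle poles apart, was at 9.10, 8.76 and 9.41 at P13 and at 5.16, 6.28 and 6.34 at P60. Every P60 array was below every P13 array, and the difference was -3.16 (SE 0.36, limma adjusted p = 0.00743). Ccnb2, cyclin B2, fell from 10.92, 11.63 and 11.25 to 8.96, 8.50 and 7.50, a difference of -2.95 (SE 0.39, limma adjusted p = 0.00975). The kinesin Kif20a fell by 2.78, as did Aurkb, the kinase of the chromosomal passenger complex. Top2a, the topoisomerase that untangles replicated DNA, fell by 2.60 and Mki67, a protein of cycling nuclei, fell by 1.77. Only Ccnd1 and Ccnd2, cyclins of G1, lay above 0 in the list, at 0.38 and 0.08, and neither passed. The count was 47 without the 3 arrays weak at the Gapdh 5′ end, 12 without P13 replicate 1, 9 without P13 replicate 2 and 27 without P60 replicate 2.

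The promoters of these genes are shown because the members moved together. RefSeq entries (GRCm38.p6) were matched for 45 of the 56 genes, and the 250 bases before the first listed start were searched on both strands for the cell cycle genes homology region (CHR, TTTGAA or TTCGAA) and for the CCAAT box (CCAAT). The CHR letters were present in 14 of the 45 (31.1%) against 17.4% of 27025 genes with an entry, and the CCAAT letters in 31 (68.9%) against 34.5%. Among 27 promoters of the interferon response list the CHR letters were in 7 (25.9%) and the CCAAT letters in 10 (37%). Members on 1 chromosome were left out of the choice of examples, so a member with a deeper fall may be missing. Below are the 4 remaining members with an entry that fell the most, Kif11 (chr19:37376132-37376381, plus strand), Ccnb2 (chr9:70421555-70421804, minus strand), Uhrf1 (chr17:56303087-56303336, plus strand), which keeps DNA methylation through replication, and Ndc80 (chr17:71526858-71527107, minus strand), which links kinetochores to microtubules. Each is written 5′ to 3′ on the strand of the gene, with either motif in capitals.
Kif11: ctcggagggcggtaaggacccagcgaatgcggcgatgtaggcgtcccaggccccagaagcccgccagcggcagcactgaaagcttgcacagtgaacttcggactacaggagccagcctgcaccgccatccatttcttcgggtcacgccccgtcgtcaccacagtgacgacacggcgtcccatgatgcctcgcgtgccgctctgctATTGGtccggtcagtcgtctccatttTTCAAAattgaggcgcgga
Ccnb2: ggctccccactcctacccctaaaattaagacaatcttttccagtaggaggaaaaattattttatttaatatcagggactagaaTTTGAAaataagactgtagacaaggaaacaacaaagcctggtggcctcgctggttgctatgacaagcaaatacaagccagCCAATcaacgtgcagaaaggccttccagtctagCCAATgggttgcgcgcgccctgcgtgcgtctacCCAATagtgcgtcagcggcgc
Uhrf1: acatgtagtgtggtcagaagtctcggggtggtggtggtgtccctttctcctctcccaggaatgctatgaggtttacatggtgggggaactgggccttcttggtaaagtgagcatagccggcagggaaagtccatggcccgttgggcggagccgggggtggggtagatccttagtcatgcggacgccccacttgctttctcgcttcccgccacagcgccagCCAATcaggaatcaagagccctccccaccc
Ndc80: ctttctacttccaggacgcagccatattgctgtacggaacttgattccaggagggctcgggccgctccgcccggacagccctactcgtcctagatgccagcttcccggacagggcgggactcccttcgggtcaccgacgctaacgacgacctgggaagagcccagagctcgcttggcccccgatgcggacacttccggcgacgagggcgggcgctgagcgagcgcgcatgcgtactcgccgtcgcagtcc
Kif11 carried both motifs on the opposite strand and Ccnb2 carried 3 CCAAT boxes and 1 CHR, while Uhrf1 had 1 CCAAT box and Ndc80 had neither in this window. A match here is a description of letters, not a measured site.

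Genes of B cells and their precursors were lower at P60. Of 22 measured genes of the B lineage, 16 were lower and 0 higher, with a median difference of -2.25. Rag1, the recombinase that assembles antigen receptor genes, was at 10.09, 10.22 and 10.50 at P13 and at 7.11, 5.75 and 5.64 at P60. The P60 arrays were well below, with replicate 1 the least so, and the difference was -4.10 (SE 0.40, limma adjusted p = 0.0071). Pou2af1, a B cell coactivator of octamer factors, fell from 11.46, 11.67 and 11.72 to 8.72, 7.14 and 6.81, a difference of -4.06 (SE 0.47, limma adjusted p = 0.00743). Dntt, the polymerase that adds bases at the joints, fell by 3.27, Vpreb1, part of the surrogate light chain, fell by 3.13, the transcription factor Spib fell by 3.24 and Fcrla, a receptor-like protein of B cells, fell by 3.24. Ebf1, an early B lineage factor that fat and stromal cells also express, was the only member above 0, at 0.86, and did not pass. The count was 18 without the 3 arrays weak at the Gapdh 5′ end, 6 without P13 replicate 1, 5 without P13 replicate 2, 9 without P13 replicate 3 and 10 without P60 replicate 2. In a bulk sample fewer cells of a type and less RNA in each cannot be told apart, here and in the lists that follow.

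Other blood lineages differed from each other. Of 19 erythroid genes 8 were lower and 0 higher (median -1.14). Epb42, a protein of the red cell membrane skeleton, fell by 3.06, the Rh antigen Rhd fell by 2.29, Ermap, a membrane protein of erythroid cells, fell by 2.07 and the nuclear protein Hemgn fell by 1.98. Hba-a1, α-globin, read only 5.25, 4.84 and 5.51 and then 5.41, 4.38 and 4.63, so this probe set gave no usable signal. Leaving out the 3 arrays weak at the Gapdh 5′ end left 2 of the 8, and leaving out 1 array gave 1 (without P13 replicate 2) to 10 (without P60 replicate 1). Among 19 neutrophil genes 2 were lower, the granule protease Ctsg (-1.37) and the precursor gene Ms4a3 (-1.33), and the median was -0.42. S100a8 and S100a9, the most abundant proteins of mature neutrophils, differed by -0.10 and -0.26 and did not pass. With 1 array left out the count ran from 0 to 4, and in knockout 0 of these genes were lower, with a median of 0.16. Among 14 genes of eosinophils, basophils and mast cells 3 were lower, Prg3 of eosinophil granules (-2.18), the basophil protease Mcpt8 (-1.68) and Ms4a2 of the IgE receptor (-1.58). This count ran from 0 to 6 with 1 array left out, and in knockout 1 gene was lower, with a median of 0.07. Among 19 genes of T and NK cells 2 were higher (10.5% against 2.14% of all genes) and 0 lower (0 to 3 higher with 1 array left out). The 2 were the chemokine Ccl5 (1.92) and Cd3g of the T cell receptor complex, which went from 3.53, 3.96 and 3.55 to 5.32, 5.12 and 5.11.

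Bone was the next group to fall. Of 18 osteoblast and osteocyte genes 11 were lower and 0 higher, with a median of -1.45, and of 15 osteoclast genes 8 were lower and 0 higher, with a median of -1.66. Ctsk, the collagen-degrading protease of osteoclasts, was at 13.07, 12.99 and 13.03 at P13 and at 9.69, 9.76 and 11.19 at P60. The P13 arrays were nearly equal, whereas P60 replicate 3 stood above the other two, and the difference was -2.82 (SE 0.40, limma adjusted p = 0.0112). Acp5, the tartrate-resistant phosphatase of the same cells, showed the same arrangement, with 13.30, 12.94 and 13.19 against 9.76, 9.73 and 11.32 (limma adjusted p = 0.0129). Ocstamp, needed for the fusion of osteoclasts, fell by 2.75 and the gelatinase Mmp9 fell by 2.66. On the bone-forming side Ifitm5, a membrane protein of osteoblasts, fell by 2.85, Smpd3, a sphingomyelinase needed for mineralization, by 2.69 and Mepe, a matrix protein of osteocytes, by 2.43. Of the 3 probe sets of Smpd3, 1 differed by 0.31 in the other direction. Without the 3 arrays weak at the Gapdh 5′ end 10 of the osteoblast and 8 of the osteoclast genes were lower, and with 1 array left out the counts ran from 2 to 12 and from 2 to 9.

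Extracellular matrix of growing tissue fell together with bone. Of 50 genes of fibrillar collagens, elastic fibers and associated matrix, 18 were lower and 0 higher (median -0.99). Lox, which cross-links collagen and elastin, went from 12.86, 12.71 and 12.61 to 10.56, 9.76 and 9.56. The P13 arrays were close to each other and all P60 arrays were below them, with a difference of -2.77 (SE 0.30, limma adjusted p = 0.0071). Col5a2, a chain of collagen V, fell by 2.64 and tenascin C (Tnc) fell by 2.22. Col1a1, the main chain of bone and skin collagen, passed narrowly, from 14.40, 14.07 and 14.40 to 11.69, 12.39 and 13.44 (difference -1.79, SE 0.42, limma adjusted p = 0.0484), and its other probe set differed by -0.11. The count for this list was 16 without the 3 arrays weak at the Gapdh 5′ end and between 3, without P13 replicate 1 or 2, and 22, without P60 replicate 1. Among 23 basement membrane genes 4 were lower and 0 higher (median -0.37), among them both chains of the common collagen IV network, Col4a1 (-1.35) and Col4a2 (-1.32), together with nidogen 2 (Nid2, -1.81) and Col15a1 (-1.47). With 1 array left out 0 to 7 of them were lower, and 1 was without the 3 arrays weak at the Gapdh 5′ end.

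Cartilage genes divided. Collagens of hyaline cartilage were lower, led by Col2a1, which was at 12.57, 13.02 and 13.75 at P13 and at 8.87, 9.69 and 9.37 at P60. No P60 array came near the P13 arrays, and the difference was -3.80 (SE 0.35, limma adjusted p = 0.0071). Other such chains also fell, Col11a1 (-3.08), Col9a1 (-2.89) and Col9a3 (-1.84). Of the 24 genes of the list 5 were lower (between 2 and 8 with 1 array left out) and 2 were higher (between 0 and 2). Prg4, lubricin of joint surfaces, rose from 8.47, 8.26 and 7.91 to 10.48, 10.17 and 10.30 (difference 2.10, SE 0.23, limma adjusted p = 0.00743). Cytl1, a secreted protein of cartilage, rose by 1.06. Aggrecan (Acan), the main proteoglycan, differed by -0.72 and did not pass.

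Few genes of growth and patterning signals passed. Dkk1, a secreted Wnt inhibitor, was at 10.19, 10.26 and 10.08 and then at 8.21, 7.18 and 6.74, a difference of -2.80 (SE 0.37, limma adjusted p = 0.00952). Of 45 measured Wnt pathway genes 3 were lower (6.67% against 3.74% of all genes) and 1 was higher (2.22% against 2.14%), with a median of 0.14. The higher one was Wnt9a (0.98), whose other probe set differed by -0.38. The count of lower Wnt genes ran from 0 to 5 with 1 array left out. Of 40 TGF-β and BMP pathway genes 2 were lower (5% against 3.74% of all genes) and 0 higher, with a median of 0.06 and a count of 0 to 3 with 1 array left out, and Bambi, a decoy receptor of this family, fell by 1.83. Of 20 imprinted growth genes 2 were lower (10%) and 0 higher, with 9 members above 0 and a median of -0.10. The count was 0 to 4 with 1 array left out, and Grb10, an adaptor that restrains growth, fell by 1.51. Igf2, the fetal growth factor, was at 10.68, 11.22 and 11.87 and at 9.72, 11.71 and 11.60 (limma adjusted p = 0.827), with overlapping arrays at these ages after higher means of 13.69 at P3 and 13.45 at P7. Of 48 genes of axon growth and guidance 3 were lower (6.25%) and 0 higher, with a median of -0.12, 22 members above 0 and a count of 0 to 6 with 1 array left out. Slit2, a guidance cue that repels axons, fell by 1.07, Sema3d, another cue, by 1.38 and the actin regulator Marcks by 1.18. The transcription factor Sox4 fell by 1.72, but 4 of its 8 probe sets went the other way. Hey1, an effector of Notch in supporting cells, fell by 1.02, and the gap junction gene Gja1 fell by 1.34 with all 6 probe sets in that direction.

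**Figure D2:**
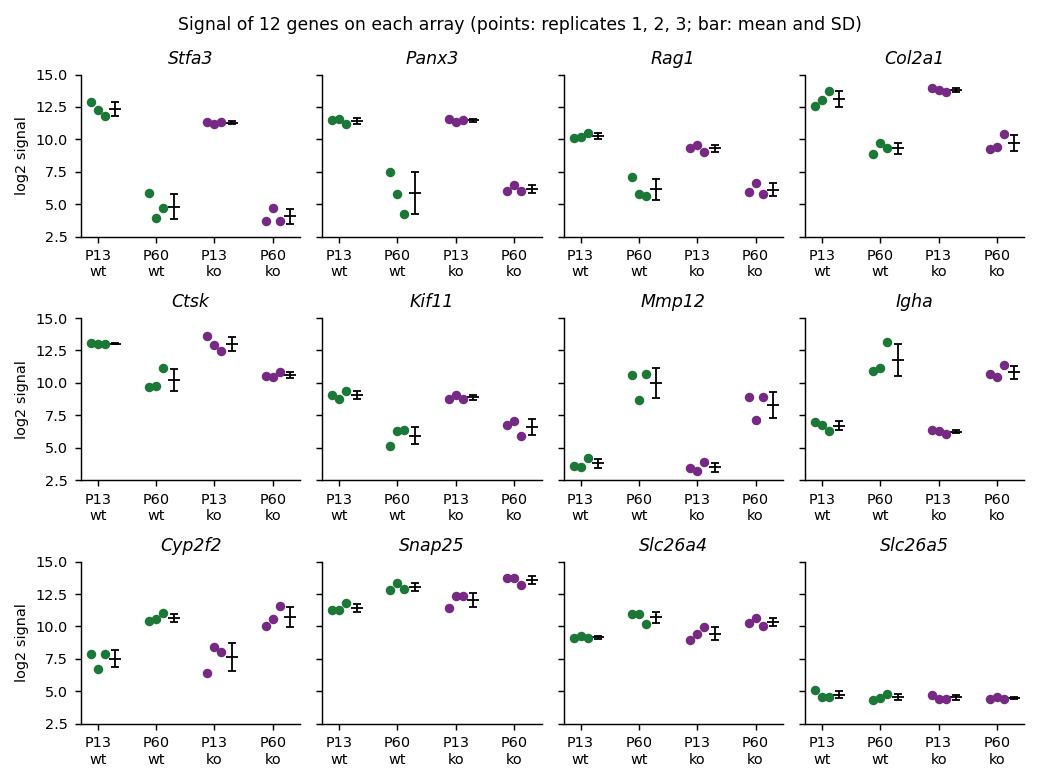
Log2 signal of 12 genes on each of the 12 arrays of P13 and P60, wild type (wt, green) and knockout (ko, purple); points are replicates 1 to 3 from left to right and bars give the mean and SD. Stfa3, Panx3, Rag1, Col2a1, Ctsk and Kif11 are lower at P60, Mmp12, Igha, Cyp2f2, Snap25 and Slc26a4 are higher, and Slc26a5 stays near the lowest 10% of genes.

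The largest rises were those of Mmp12, Igha, Arg1 and Saa3. Mmp12, the elastase of macrophages, was at 3.62, 3.53 and 4.21 at P13, under the lowest 10% of genes, and at 10.61, 8.65 and 10.71 at P60. No array of one age came near those of the other, and the fitted difference was 6.20 (SE 0.54, limma adjusted p = 0.0071), of uncertain size because the P13 values may be background. Igha, the constant region of immunoglobulin A, went from 6.98, 6.78 and 6.30 to 10.93, 11.13 and 13.17 (difference 5.05, SE 0.56, limma adjusted p = 0.00743), and P60 replicate 3 was the highest. Jchain, which joins IgA units into dimers, rose with it, from 6.55, 6.62 and 6.44 to 9.84, 9.03 and 11.26, again with P60 replicate 3 the highest. These were the only 2 of 12 plasma cell and immunoglobulin genes that passed as higher (16.7% against 2.14% of all genes), while 5 lay above 0. In the same list 3 were lower (25% against 3.74%). Mzb1 (-2.89) and the factors Irf4 (-3.17) and Prdm1 (-1.66), which are active in antibody-forming cells, fell. With 1 array left out the higher count ran from 1 to 2 (2 without P13 replicate 3) and the lower count from 2 to 3. Ighm, the μ constant region, had 11 probe sets that ran from -1.69 to 2.31, so no direction can be given. Arg1, the arginase of liver and of some macrophages, rose from 4.15, 3.92 and 4.54 to 8.49, 8.01 and 8.12 (SE of the difference 0.25, limma adjusted p = 0.00247) and Saa3, an acute phase protein, from 6.54, 5.67 and 5.86 to 9.30, 9.98 and 9.45 (difference 3.56, SE 0.31, limma adjusted p = 0.0071).

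Chemokines, antigen presentation and complement were raised in part. Of 30 chemokine genes 5 were higher and 1 was lower (median 0.65), and the count of higher genes ran from 0, without P13 replicate 2, to 10, without P60 replicate 3. Ccl8, which attracts monocytes, rose by 3.53 from 7.07, 6.40 and 6.22 to 10.39, 10.85 and 9.05, while Ppbp, a chemokine of platelets, fell by 1.30. Cxcl2, which attracts neutrophils, rose by 2.56 from 4.06, 3.94 and 3.83, all under the lowest 10% of genes, so the size is uncertain. Ccl6 rose by 2.22 and Ccl9 by 2.01. Genes of major histocompatibility complex class II, which present antigen to T cells, were higher in 3 of 10 (H2-Eb1 2.16, H2-Ab1 1.83, H2-Aa 1.83). H2-Ob, a class II chain of B cells, fell by 1.94, and Cd74, the invariant chain, was at 10.15, 10.05 and 10.96 and at 10.97, 12.30 and 12.25, which did not pass (limma adjusted p = 0.0869). Macrophage genes were higher in 4 of 25 (16% against 2.14% of all genes, median 0.36). The 4 were the protease Ctss (1.55), the folate receptor Folr2 (1.52), Cd14 (1.14) and C1qb (1.11), whereas Adgre1 and Cd68 differed by 0.13 and -0.23. In knockout 0 of the 25 were called higher and 1 lower, with a median of 0.19, and the 4 lay above 0 without passing. Among 13 complement genes 3 were higher (23.1% against 2.14% of all genes), factor B (Cfb, 1.71), C3ar1 (1.31) and C1s1 (1.18). Among 38 interferon response genes 4 were higher (10.5%), with Ifi27l2a at 1.92 and Ifit3 at 1.75. None of the macrophage, complement, interferon or class II genes was called higher when P13 replicate 1 or 2 was left out, while 6, 6, 8 and 5 were without P60 replicate 1. Higher calls in knockout numbered 2 of 13 for complement, 9 of 38 for interferon response, 2 of 10 for class II and 3 of 30 for chemokines.

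Some genes of airway-type epithelium, which lines the respiratory tract and the middle ear, also rose. Of 22 measured genes 5 were higher and 0 lower, with a median of 1.01. Cyp2f2, a cytochrome of secretory airway cells, was at 7.85, 6.74 and 7.90 and then at 10.40, 10.56 and 11.02, a clear separation with a difference of 3.16 (SE 0.36, limma adjusted p = 0.00743). The mucin Muc4 rose by 2.82 from 4.31, 3.44 and 4.96, near the lowest 10% of genes, so the size is uncertain. Tmem212 of ciliated cells rose by 1.98 and the simple epithelial keratin Krt8 by 1.42. Sftpd, surfactant protein D, which is not in the list, rose from 6.38, 4.85 and 5.59 to 9.22, 8.49 and 9.62 (difference 3.51, SE 0.44, limma adjusted p = 0.00886). The summed signal of the list ran from 2543 to 6654 on the P13 arrays and from 15950 to 25810 on the P60 arrays. Bpifa1, a secreted airway protein of very high signal, was at 11.91, 8.67 and 11.90 and at 13.26, 13.53 and 14.15, and its difference of 2.82 did not pass (limma adjusted p = 0.0884). The count was 1 without the 3 arrays weak at the Gapdh 5′ end, 1 without P13 replicate 1 or 2 and 8 without P60 replicate 1. How much lining tissue stayed with each dissected cochlea was not measured.

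Among genes of detoxification and antioxidant defense, 5 of 39 were higher (12.8% against 2.14% of all genes) and 2 were lower (5.13% against 3.74%). The median was 0.52. Besides Cyp2f2, epoxide hydrolase Ephx1 rose from 9.09, 9.20 and 9.52 to 10.89, 11.17 and 10.87 (difference 1.71, SE 0.22, limma adjusted p = 0.00952), and the glutathione transferases Gsta4 and Gstt1 rose by 1.66 and 1.06. The peroxidases Gpx7 and Gpx8 of the endoplasmic reticulum fell by 1.63 and 0.98. Leaving out 1 array gave 1 to 13 higher and 0 to 2 lower genes in this list. Of 17 circadian clock genes 2 were higher (11.8%) and 0 lower, with a median of 0.70 and 6 members below 0. The count ran from 0 to 7 with 1 array left out. Dbp and Per2, output and core genes of the clock, rose by 1.53 and 1.07, and neither labels nor methods give the hour of tissue collection.

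In the sensory epithelium few genes passed. Of 34 measured hair cell genes 2 were higher (5.88% against 2.14% of all genes) and 0 lower, and the median was 0.51. Before adjustment (limma p under 0.05) 10 were higher and 0 lower. Lhfpl5, a subunit of the mechanotransduction complex, rose from 6.12, 6.36 and 6.59 to 7.43, 7.31 and 7.37 (difference 1.01, SE 0.22, limma adjusted p = 0.0378) and Slc7a14, a transporter of inner hair cells, rose by 1.21. Otof, the calcium sensor of hair cell exocytosis, was at 7.85, 7.22 and 7.18 and then at 8.23, 8.13 and 8.05. Its arrays did not overlap, yet the difference of 0.72 did not pass (limma adjusted p = 0.136). Myo7a, a myosin of the hair bundle, differed by -0.45 and Tmc1, the transduction channel, by 0.52, and neither passed. The 3 probe sets of Tmc1 ran from -0.23 to 0.52, with only 1 of them above 0. Chrna9, the α9 subunit itself, was at 5.50, 5.14 and 5.13 and at 6.40, 5.79 and 5.68 (limma adjusted p = 0.162). Its mean at P13 was 5.25 in wild type and 5.26 in the α9 null arrays, so the P13 signal is not shown to be above background. At P60 the means were 5.96 and 5.38, and all 3 wild type arrays lay above all 3 null arrays, a contrast that was not tested. Of the 3 probe sets of Chrna9, 1 differed by -0.67 between P13 and P60 in wild type. The count ran from 0 to 8 with 1 array left out, and it was 1 without the 3 arrays weak at the Gapdh 5′ end.

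Of 6 genes of the tectorial and otolithic membranes only Oc90, the main protein of otoconia, passed, at 7.40, 7.54 and 7.15 and then 5.26, 4.99 and 5.69 (difference -2.05, SE 0.25, limma adjusted p = 0.00861). Tecta and Tectb, the tectorins, had reached 7.36 and 8.25 on average at P13 after 11.02 and 12.62 at P3, and they differed by -0.12 and -0.59 between P13 and P60. Among 22 supporting cell genes 1 was higher, S100a1 (1.05), and 1 was lower, Hey1 (4.55% each, against 2.14% and 3.74% of all genes).

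Ion transport of the lateral wall was higher in part. Of 17 stria vascularis genes 4 were higher (23.5% against 2.14% of all genes) and 0 lower, with a median of 0.67. Slc26a4, pendrin, the bicarbonate exchanger of spindle cells, was at 9.13, 9.27 and 9.08 and then at 10.95, 10.95 and 10.19 (difference 1.54, SE 0.27, limma adjusted p = 0.0192). Atp1b2, a β subunit of the sodium pump, rose by 1.42 from 10.72, 10.91 and 10.81 to 12.62, 12.21 and 11.87, and Kcnj10, the potassium channel that sets the endocochlear potential, rose by 1.20 from 9.14, 9.23 and 9.16 to 10.57, 10.71 and 9.86. On all 3 genes P60 replicate 3 was the lowest adult array but still above every P13 array. The water channel Aqp5 rose by 1.37. Kcnq1 of the marginal cells (0.60) and Kcnj16 (0.42) did not pass, and neither did the connexins Gjb2 (0.82, limma adjusted p = 0.0786) and Gjb6 (0.90, limma adjusted p = 0.0705), whose P60 arrays nevertheless all lay above those of P13. Cldn9, a claudin of the tight junctions between perilymph and endolymph, rose by 1.72 and Sox10, a factor of melanocytes and glia, by 1.51. Of 16 fibrocyte genes 0 passed in limma (median 0.10), Coch included (limma adjusted p = 0.141), and before adjustment 3 were higher and 2 lower at a p under 0.05. The stria count was 3 without the 3 arrays weak at the Gapdh 5′ end and 0 without any 1 of the P13 arrays or without P60 replicate 2. In knockout 1 of the 17 stria genes was called higher, Aqp5 (1.23), and the median was 0.40. There Slc26a4 (0.89), Atp1b2 (0.635) and Kcnj10 (0.54) lay above 0 and did not pass.

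Most neuronal genes lay above 0, though few passed, with 22 of 22 neuron and neurofilament, 31 of 32 synaptic and 30 of 35 channel genes above 0. For all genes the median difference was -0.08. The medians were 1.06 for 22 neuron and neurofilament genes (4 higher), 0.99 for 32 genes of synaptic vesicles and SNARE proteins (6 higher) and 0.84 for 35 voltage-gated sodium and potassium channel genes (6 higher), and none was lower. Snap25, which drives vesicle fusion, was at 11.26, 11.26 and 11.81 and then at 12.77, 13.36 and 12.91 (difference 1.57, SE 0.26, limma adjusted p = 0.018). Vamp1, its partner on the vesicle, rose by 1.77, Syn1, synapsin, by 1.45 and the dynamin Dnm1 by 1.44. Among channels Scn4b, a β subunit of sodium channels, rose from 8.56, 8.77 and 9.09 to 10.76, 10.85 and 10.42 (difference 1.87, SE 0.24, limma adjusted p = 0.00918) and Scn8a, the sodium channel of nodes of Ranvier, rose by 1.60. Of the 5 probe sets of Scn8a, 4 lay above 0 and the lowest was at -0.44. Thy1, Stmn3 and Elavl4, markers of neurons, rose by 1.43, 1.42 and 1.16, and Slc17a6, a vesicular glutamate transporter, by 0.98. The neurofilament genes Nefl and Nefh differed by 0.65 and 0.59 and did not pass.

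Markers of brain and muscle were examined beside these lists. Of 20 markers of cerebellum and brain, which the dissection was meant to remove, 1 was higher, Fat2 of cerebellar granule cells (1.12), and 15 lay above 0. Their summed signal ran from 3233 to 9941 on the P13 arrays and from 6791 to 19950 on the P60 arrays, and the median difference of 0.88 became 0.15 without the 3 arrays weak at the Gapdh 5′ end. Gabra6, a receptor subunit of granule cells, differed by 2.53 and did not pass. Without those arrays the median stayed at 1.06 for neuron genes, 0.81 for synaptic genes and 0.71 for channels, but the fit called 0, 2 and 1 of them. The median of 29 GABA and glutamate receptor genes, of which 0 passed in limma against 10 higher and 1 lower before adjustment, dropped from 0.80 to 0.19. With 1 array left out the 3 counts ran from 0 to 15, 0 to 13 and 0 to 12, the lowest without P13 replicate 1 or 2 and the highest without P60 replicate 1. The part of brain tissue in the neuronal values was not tested. Of 34 genes of adult skeletal muscle 0 passed in limma, against 12 higher and 0 lower before adjustment (p under 0.05), with a median of 1.25, and the summed signal varied from 6409 to 33380 at P13 and from 24590 to 126800 at P60. Myh4, the myosin of fast fibers, was at 8.88, 4.74 and 9.08 and at 10.05, 10.46 and 12.85, which shows the spread (limma adjusted p = 0.129). In knockout 28 of the 34 muscle genes were called higher and 0 lower (median 2.78), Myh4 included (4.92, limma adjusted p = 0.0023). Knockout calls were also higher for 10 of 20 brain markers (median 1.44) and 12 of 29 receptor genes (median 1.43). For neuron, synaptic and channel genes they were higher for 12 of 22, 19 of 32 and 13 of 35.

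Among myelin, energy and protein synthesis genes only 1 passed. Of 22 myelin genes only Pmp2, a fatty acid binding protein of Schwann cells, passed, and it fell from between 7.87 and 8.34 to between 5.57 and 6.14 (difference -2.27, SE 0.25, limma adjusted p = 0.00743). Mbp, myelin basic protein, was at 13.15, 13.42 and 13.51 and at 13.77, 14.02 and 13.56 (limma adjusted p = 0.311). Differences of its 8 probe sets ran from -0.35 to 2.48, with 7 of them above 0. Of 56 respiratory chain genes 0 passed in limma (median 0.16), against 5 higher and 0 lower before adjustment (p under 0.05). The count was also 0 for 33 cytosolic ribosome genes (median -0.29, 0 higher and 4 lower unadjusted), 31 proteasome genes (median -0.06, 0 and 2) and 19 genes of cholesterol synthesis (median 0.16, 1 and 0).

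Knockout arrays, which share no sample with the wild type ones, gave the same direction for most of these genes. Between P13 and P60 in knockout 1038 genes were higher (5.71%) and 1119 lower (6.15%). Of the 390 genes higher in wild type 385 had a difference above 0 in knockout and 219 were also called higher there, which is 56.2% of the wild type and 21.1% of the knockout calls, and of the 681 lower genes 675 were below 0 and 540 were called lower, 79.3% of the wild type and 48.3% of the knockout calls. No gene was called in opposite directions. Stfa3 (-7.23), Panx3 (-5.31), Rag1 (-3.19), Col2a1 (-4.11), Igha (4.58) and Mmp12 (4.82) all passed in knockout too. The median over the 390 genes was 1.38 in wild type and 1.11 in knockout, and over the 681 genes it was -1.63 and -1.31, which the choice of genes by their wild type values can set. Direct tests of the difference of change between genotypes called 0 of 18193 genes (0%) in limma over all 24 arrays. The smallest adjusted p in limma was 0.361. Before adjustment (limma p under 0.05) the wild type change minus the knockout change was above 0 in 227 genes and below 0 in 411. This sign does not say which change was larger in size. Saa3 (3.56 and 1.08), Cxcl2 (2.56 and 0.21) and Veph1 (3.14 and 0.99) were among the genes that passed in wild type and not in knockout, and their difference between genotypes did not pass. Low Gapdh 5′ signal occurred on 3 of the 6 wild type arrays and on none of the 6 knockout arrays, so it cannot be told apart from genotype there.

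**Figure D3:**
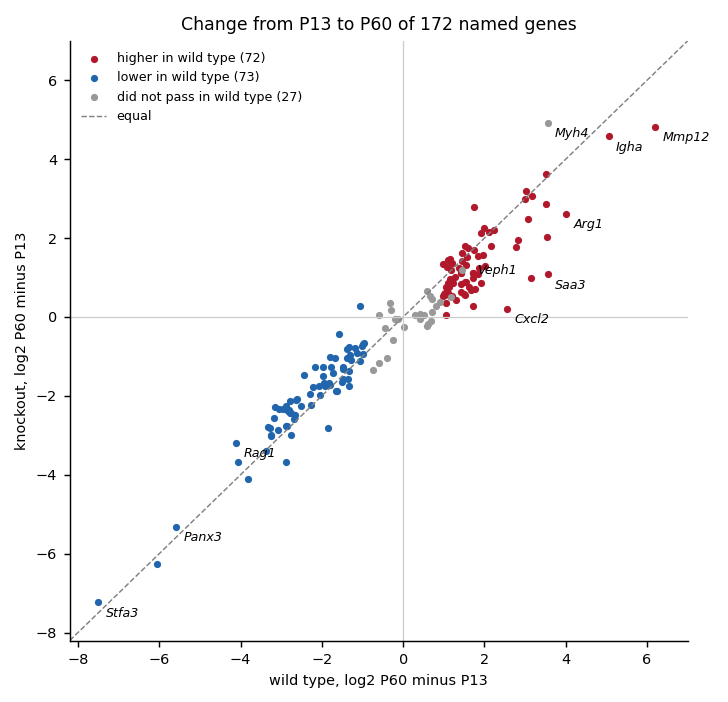
Change from P13 to P60 of the 172 named genes, wild type (horizontal) against knockout (vertical), both as log2 differences of means of 3 arrays; colors give the call in wild type and the dashed line marks equal change. Stfa3, Panx3 and Igha lie near the line, Cxcl2 lies near 0 in knockout.

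Levels at P3 and P7 place the interval in the course of development. Means of a list on each array, relative to the P13 wild type mean, showed that cell cycle genes were at -1.24 ± 0.16 (SD, n = 3) at P3, at -1.22 ± 0.05 at P7 and at -1.96 ± 0.25 at P60, so P13 was the highest of the 4 ages. B cell genes were lowest at P3, at -3.60 ± 0.32, and were at -2.42 ± 0.15 at P7 and -2.19 ± 0.41 at P60. Erythroid genes were at -3.09 ± 0.52, -1.73 ± 0.06 and -1.17 ± 0.09. Cell cycle, B cell and erythroid lists were thus highest at P13, whereas the macrophage list was highest at P60, at 0.41 ± 0.14, and which cells carried the cell cycle signal was not tested. In contrast, osteoblast genes were at 0.05 ± 0.06 at P3, highest at P7 with 0.89 ± 0.13 and lowest at P60 with -1.76 ± 0.12, and the fibrillar matrix list went from 0.76 ± 0.05 and 0.78 ± 0.17 to -0.95 ± 0.17. Synaptic vesicle genes were at -0.19 ± 0.08, -0.66 ± 0.21 and 0.92 ± 0.18, so that their level at P60 was above that of all 3 younger ages, as it was for the stria list with -0.17 ± 0.15, -0.33 ± 0.12 and 0.73 ± 0.25. These values are descriptions, and no age before P13 was tested.

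**Figure D4:**
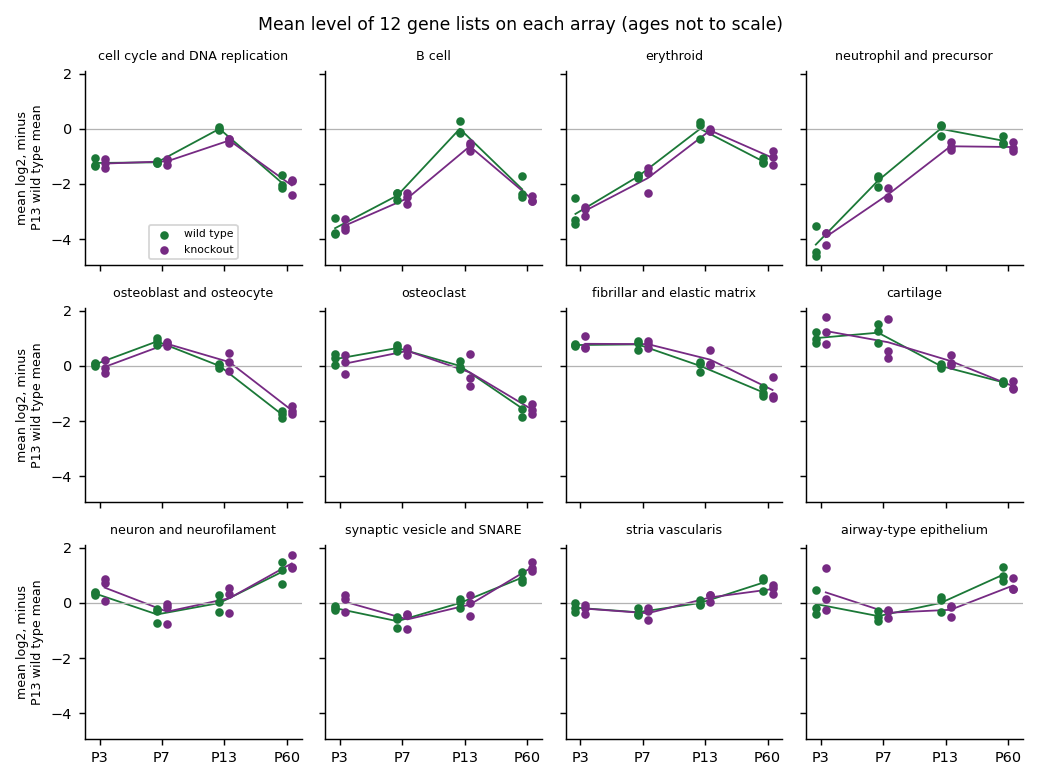
Mean log2 level of 12 gene lists on each of the 24 arrays, minus the P13 wild type mean of the list, by age (categories not to scale); points are arrays, lines join group means, green is wild type and purple knockout. Cell cycle, B cell and erythroid lists are highest at P13, bone lists at P7, and synaptic and stria lists at P60.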

How the data were processed

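Each Affymetrix mouse whole-genome array measured total RNA from 1 pool of cochleae. The log2 values deposited by the authors came from AffyPLM, where background was corrected as in RMA, arrays were quantile-normalized and probes were summarized by Tukey's biweight. Here they were quantile-normalized again over all 24 arrays, and the probe set of highest mean signal was kept for each of 18193 genes. P60 and P13 wild type arrays were compared in limma 3.58.1 (R 4.3.3) on these 6 arrays, with Benjamini-Hochberg adjustment and a threshold of 0.05, the knockout arrays likewise, and the difference of change between genotypes in a fit of all 8 groups. Named were the 12 largest rises and falls that passed without overlap, up to 4 passing genes per list and direction, and fixed genes. Others, such as Ccnd1, Vpreb1 and S100a8, were chosen after their values were seen. The members and the 52 gene lists were chosen with earlier results of these data known. The fit was tested on simulated data, and the outcome is not given here. Alternatives covered scaling, probe set choice, filters, array weights, a replicate block and arrays left out, and one of them (leaving out P13 replicates 2 and 3) was chosen after seeing the data. No detection calls were used, and p-values measure the spread between pools.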

Additional observations from a re-analysis of the deposited data

How the results depend on the processing

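Numbers of higher and lower genes, 390 and 681 as reported, depended strongly on the setting, and the cause was not tested. They were 1257 and 1952 with the spread of all 24 arrays, 244 and 2410 on the deposited values, 250 and 937 after centering each array, 145 and 329 with the probe set of highest variance, 161 and 382 among the top 40% of probe sets by variance, 3996 and 6332 with array weights (from 0.167 for P60 replicate 1 to 5.99 for P13 replicate 2) and 145 and 394 with a difference of at least 1.5. Without the 3 arrays weak at the Gapdh 5′ end a fit of 3 arrays called 0 and 0, without every such array of the series the counts were 560 and 1156, and without the 2 P13 arrays of low poly-A signal they were 620 and 1265. Leaving out 1 array gave 10 to 1396 higher and 45 to 2043 lower genes. Calls were higher in 36.4% as reported, in 9.19% on deposited values and in 21.1% after centering. Differences of change between genotypes numbered 0 as reported, 5012 with array weights, 2 without the P13 arrays of low poly-A signal and 0 to 3 with 1 array left out (3 without P60 replicate 3). Replicate numbers were not treated as pairs, and whether they pair the samples was not tested. Deviations of same-numbered arrays correlated at 0.199, -0.214 and 0.358, and those of differently numbered arrays at between -0.540 and 0.456. With the replicate block 466 higher and 752 lower genes were called, 315 and 600 of them among those reported. Of the 145 named genes that passed, 144 kept their call with the spread of all arrays, 95 without the 3 arrays weak at the Gapdh 5′ end and 29 to 145 with 1 array left out. With the probe set of highest variance 74 kept it and Lef1 (0.22), Smpd3 (0.31) and Sox4 (0.34) reversed. Of 78 named genes with several probe sets, 63 had all of them in the same direction.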

Other observations

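Some single genes outside the named ones, picked because of their values and given without a further test or a count of related genes, were called higher at P60 in both genotypes. Scn11a and Scn10a, sodium channels of sensory neurons, rose by 2.55 and 1.94 in wild type and by 3.04 and 2.22 in knockout, although Scn10a stayed low, between 3.63 and 3.90 at P13 and between 4.96 and 6.52 at P60. Asic3, a proton-gated channel, rose by 1.72 and 0.96. Hspb1, a small heat shock protein, rose by 2.15 and 1.64. Col24a1 and Col22a1, a pair of collagen chains picked in the same way, fell in both genotypes, with differences of -3.17 and -2.74 in wild type and of -2.96 and -2.48 in knockout.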
